A study of Mus musculus with 12 samples.

Results

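Vsig4 and 8 other genes of tissue macrophages (Cd163, Lyve1, Mrc1, Maf, Csf1r, Emr1, Cd68 and F13a1) were followed in the left ventricle of adult mice in which the cardiac transcription factor gene Nkx2-5 had been deleted from the trabecular myocardium before birth. The 9 genes were taken by name from the 34844 gene names on the arrays. Vsig4 was chosen by its measured rise on these arrays in both mutants, so its changes against control are given as a description with no test. All 9 genes had a probe among the 18021 genes that passed the filter on background (3 or more arrays of some group marked by the scanner's software as well above background), and 12 of their 15 probes passed it. Cd163 passed through the TrbE10 group alone.

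RNA came from the left ventricular wall with the apex, without the septum, of 12 mice aged 6 months, with 1 mouse per one-colour array and 4 arrays per group. The Nkx2-5ΔTrbE10 mice (TrbE10) and the Nkx2-5ΔTrbE14 mice (TrbE14) carried a floxed Nkx2-5 allele without its selection cassette (Floxed-Nkx2-5-ΔNeo) and Cx40-creERT2, a Cre recombinase that is produced from the Cx40 locus and is active only with tamoxifen. Tamoxifen was given to their mothers on days E10.5 and E11.5 of gestation for TrbE10, and on days E13.5 and E14.5 for TrbE14, and the pups were delivered by caesarean section and raised by CD1 foster mothers. Control mice are labelled as not injected, whereas the study's methods describe littermates with the floxed alleles and no Cre, so the exposure of the controls to tamoxifen is not settled. The Cx40 promoter is also active in cells other than trabecular cardiomyocytes, including arterial endothelium, and the samples were whole tissue, in which more cells of a type and more RNA per cell cannot be told apart.

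Resident macrophages of the heart settle in the tissue before birth and renew themselves there, in part independently of blood monocytes. They depend on CSF1R, the receptor of the growth factors CSF1 and IL-34, and clear dying cells, debris and opsonized particles. VSIG4, also called CRIg, is a macrophage receptor of the immunoglobulin superfamily that binds fragments of complement C3 and takes up particles coated with them. CD163 takes up haemoglobin bound to haptoglobin, LYVE1 binds hyaluronan and MRC1 binds mannose-rich glycans, and the transcription factor MAF acts in macrophage differentiation. EMR1, the F4/80 antigen, and CD68, a lysosomal glycoprotein, mark macrophages in general, and F13A1 is the catalytic subunit of the transglutaminase that crosslinks fibrin.

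Each value below is the signal of a probe of 60 bases. The first 30 bases of the probes for Vsig4, the gene with the largest change, Cd68 and Maf, which were higher on every TrbE10 array, and Cd163, which lay near background, are shown as the array files give them, 5′ to 3′ and in lower case, with their position in build mm9. The files assign each probe to its gene, and its exon was not determined here.
Vsig4 probe, chrX:93442628-93442657, minus strand: ggattactcctctttctctagggccagatg
Cd68 probe, chr11:69477805-69477834, minus strand: gcctcatctcttcaccatgccactgactca
Maf probe, chr8:118227766-118227795, minus strand: tgggtatgtgtagttcttgctataccatgg
Cd163 probe, chr6:124270436-124270465, plus strand: tgttttacaatggtacatggggcagtattg

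The 250 bases before the start of Vsig4 and of Cd68 are shown because both genes were higher on every TrbE10 array than on every control array. They come from the RefSeq promoter table for GRCm38.p6. Capitals mark GAGGAA on either strand, the core sequence that the macrophage transcription factor PU.1 (encoded by Spi1) binds.
Vsig4 promoter, chrX:96293439-96293688, minus strand: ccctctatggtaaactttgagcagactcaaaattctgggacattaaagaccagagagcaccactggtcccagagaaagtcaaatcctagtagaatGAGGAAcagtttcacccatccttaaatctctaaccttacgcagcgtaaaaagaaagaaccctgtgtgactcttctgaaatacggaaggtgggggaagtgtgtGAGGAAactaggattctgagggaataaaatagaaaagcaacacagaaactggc
Cd68 promoter, chr11:69666171-69666420, minus strand: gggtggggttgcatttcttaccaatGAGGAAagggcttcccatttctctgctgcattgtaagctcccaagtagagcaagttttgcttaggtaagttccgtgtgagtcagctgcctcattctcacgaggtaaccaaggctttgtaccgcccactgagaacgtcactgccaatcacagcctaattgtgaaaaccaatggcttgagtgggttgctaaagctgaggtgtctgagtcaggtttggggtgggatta

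GAGGAA began 155 and 53 bases before the start of Vsig4 and 225 bases before that of Cd68. It also began 180, 167 and 35 bases before the start of Mrc1 and 66 bases before a start of F13a1. The changes of Mrc1 and F13a1 did not pass the test described below. The table held 6 promoters of 5 members (Vsig4, Cd163, Mrc1, Cd68 and F13a1), and 4 of the 6 held GAGGAA, as did 23.3% of the 32851 promoters in the table over the same window. The short sequence TGCTGA, part of the element that MAF binds, was searched on both strands in the same way. It was in 0 of the 6 member promoters and in 16.1% of all promoters, so that no match of one motif overlapped the other. A match of letters is not a binding site, and spacing, chromatin and distal enhancers were not examined.

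Levels are given as the log2 of the scanner's background-subtracted signal after quantile normalization, and changes as differences of group means on that scale. Each was tested with limma, a linear model with shared information on the spread between arrays, and called where its p, adjusted over all kept probes, was under 0.05. The signals ranged alike over the 12 arrays, with a 75th percentile between 195 and 250, and no member probe was saturated. Slide 1 held the arrays of control and TrbE14 and slide 2 those of TrbE10, so TrbE10 and the slide cannot be told apart in either comparison that involves TrbE10, whereas TrbE14 and control shared a slide. Y-linked genes gave signal in 1 of the 4 controls, 2 of the 4 TrbE10 and 3 of the 4 TrbE14 mice. Of 6 cardiomyocyte genes all 6 were measured, with median log2 changes of -0.05 and -0.04. Wherever 0 genes of a list passed the test of limma in a mutant, SAM also called 0 of them, and the number with an unadjusted p under 0.05 is given. Over all 18021 genes, 3027 in TrbE10 and 2509 in TrbE14 had an unadjusted p under 0.05 by limma, the background for these numbers. Of the cardiomyocyte genes 0 passed, with 1 such gene in each mutant.

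Vsig4 was the member with the largest difference from control in both mutants. Its log2 signal was 7.09, 7.38, 7.37 and 7.25 in the control hearts, 11.62, 10.91, 11.65 and 11.25 in the TrbE10 hearts, and 11.29, 11.12, 10.84 and 11.11 in the TrbE14 hearts. Every mutant array thus lay far above every control array, and the arrays of the mutants overlapped each other. The means were 7.27 ± 0.13 (SD, n = 4) in control, 11.36 ± 0.35 in TrbE10 and 11.09 ± 0.18 in TrbE14 hearts. On the linear scale the geometric mean signal was 154 in control, 2623 in TrbE10 and 2184 in TrbE14 hearts. The probe was well above background on all 12 arrays, so that the control level was measured rather than bounded. The difference from control was 4.09 on the log2 scale (17.0-fold) in TrbE10 and 3.82 (14.1-fold) in TrbE14, with an SE of 0.16 for each. Between the mutants, a comparison that did not enter the choice of the gene, Vsig4 was higher in TrbE10 by 0.27 on the log2 scale, with a 95% confidence interval from -0.09 to 0.62 (adjusted p = 0.930, limma). In the order of the levels, TrbE10, TrbE14 and control, the upper pair of groups did not differ beyond their spread.

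**Figure D1:**
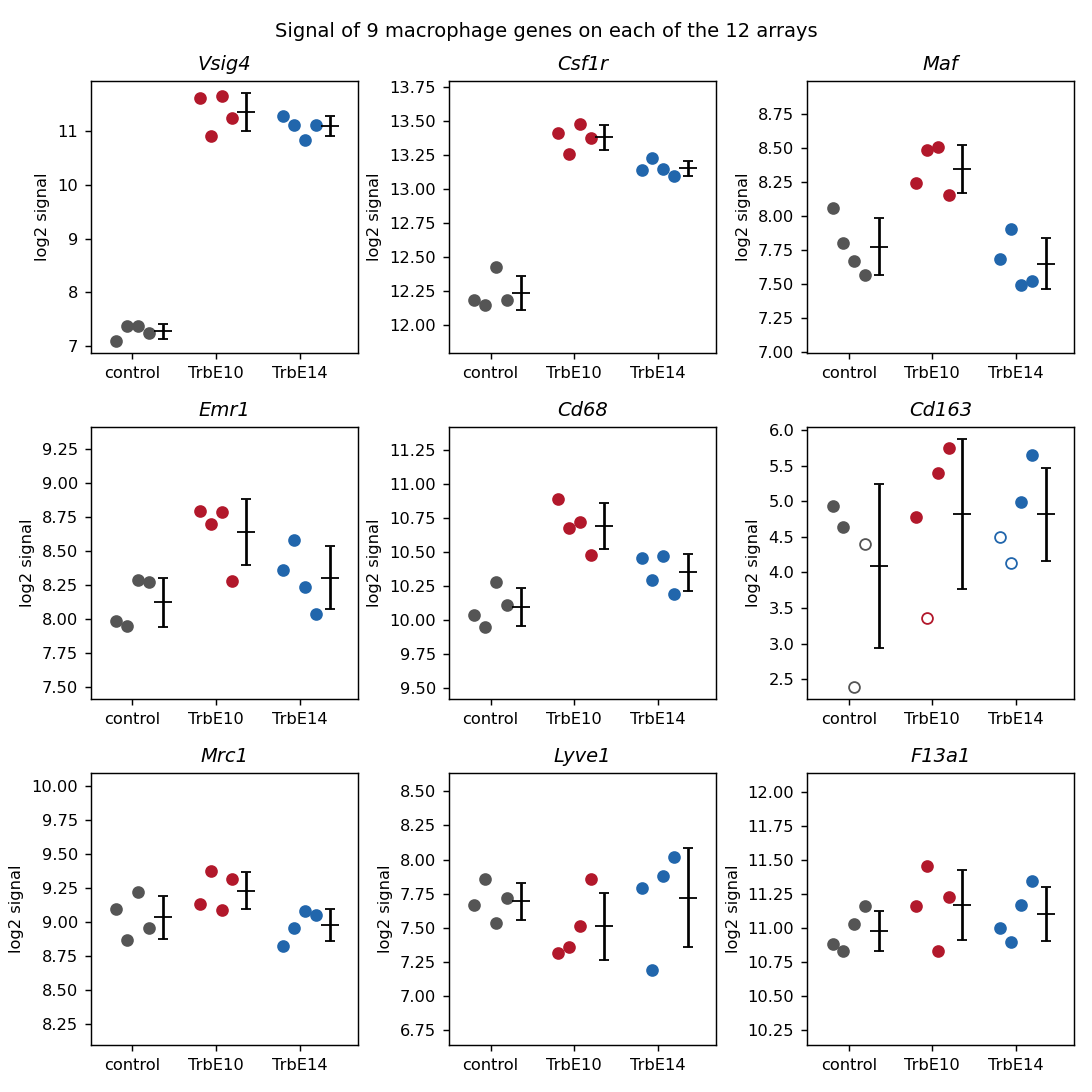
Log2 signal after quantile normalization (vertical axis, a range of its own in each panel) of the 9 genes on each array of the 3 groups (horizontal axis), with the mean and SD of the 4 arrays beside the points. Open points were not well above background. Vsig4 and Csf1r separate both mutants from control, Maf and Cd68 separate TrbE10 alone, and for the other 5 genes both mutants overlap control.

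Csf1r, which encodes the receptor on which macrophage survival depends, was the other member that was higher in both mutants. Its log2 signal was 12.19, 12.15, 12.43 and 12.19 in control, 13.41, 13.26, 13.48 and 13.38 in TrbE10, and 13.15, 13.23, 13.15 and 13.10 in TrbE14 hearts. The 3 groups did not overlap, TrbE10 being the highest and control the lowest, with means of 13.38 ± 0.09, 13.15 ± 0.06 and 12.24 ± 0.13 (SD, n = 4) in TrbE10, TrbE14 and control. Csf1r rose 2.21-fold in TrbE10 (log2 change 1.14, SE 0.08, adjusted p = 1.12e-04) and 1.89-fold in TrbE14 (log2 change 0.92, SE 0.08, adjusted p = 6.07e-04). Control replicate 3 stood above the other control arrays, and without it the log2 changes were 1.20 and 0.98. The calls held in all 12 fits that each left out 1 array.

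Csf1r had 3 probes above background, and they differed in signal and in the size of the change. Their geometric mean signals in control were 4831 for the probe above, 189 for the second and 94.3 for the remaining one. The second probe, for a more upstream part of the transcript, gave log2 changes of 1.11 (adjusted p = 0.00237) and 0.91 (adjusted p = 0.0114). The remaining probe gave 0.70 (adjusted p = 0.0619) and 0.46 (adjusted p = 0.273), neither past the threshold of 0.05, although on this probe too every mutant array lay above every control array. All 3 probes thus gave higher values in both mutants.

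The other markers of macrophages in general, Cd68 and Emr1, had smaller differences. Cd68 gave 10.04, 9.95, 10.28 and 10.11 in control, 10.89, 10.68, 10.72 and 10.48 in TrbE10, and 10.45, 10.29, 10.47 and 10.19 in TrbE14 hearts, as log2 signals. The TrbE10 arrays lay above all others, while TrbE14 overlapped control. Cd68 rose 1.51-fold in TrbE10 (log2 change 0.60, SE 0.11, adjusted p = 0.0239), and its log2 change in TrbE14 was 0.26 (SE 0.11, adjusted p = 0.343). This call was close to the threshold: it held in 7 of 12 fits that each left out 1 array, with an adjusted p of up to 0.0759, and failed without control replicate 1, 2 or 4 or TrbE10 replicate 1 or 3. It was also lost without the filter (0.0519), with only the 2 groups in the fit (0.0601) and by SAM (0.0605). The second Cd68 probe was at background on nearly all arrays.

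Emr1 spanned 7.95 to 8.28 in control hearts, 8.28 to 8.79 in those of TrbE10 and 8.04 to 8.58 in those of TrbE14. One TrbE10 array, replicate 4, lay within the control range and the other 3 lay above it. The log2 changes were 0.52 (SE 0.15, adjusted p = 0.120) and 0.18 (SE 0.15, adjusted p = 0.601). The second Emr1 probe gave 0.65 (adjusted p = 0.0908) and 0.35 (adjusted p = 0.393), so that Emr1 passed the test in neither mutant. On this second probe every TrbE10 array lay above every control array, while TrbE14 overlapped control, so the overlap of TrbE10 depended on the probe.

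Maf differed between the mutants in its pattern. Its log2 signal was 8.05, 7.80, 7.67 and 7.57 in control, 8.24, 8.48, 8.50 and 8.15 in TrbE10, and 7.68, 7.90, 7.49 and 7.52 in TrbE14 hearts. Every TrbE10 array lay above every array of both other groups, which overlapped. The log2 change was 0.57 in TrbE10 (SE 0.14), which fell just short of the threshold (adjusted p = 0.0598), and -0.12 in TrbE14 (SE 0.14, adjusted p = 0.694). It passed with normexp background correction (log2 change 0.42, adjusted p = 0.0465), with the authors' normalized values (0.57, adjusted p = 0.0491) and without control replicate 1 (0.67, adjusted p = 0.0473). Between the mutants the difference was 0.70 with a 95% confidence interval of 0.40 to 0.99, unadjusted for the number of genes, and an adjusted p of 0.244 over all probes. The second Maf probe was not kept, being well above background on 1, 1 and 2 of the 4 arrays of the control, TrbE10 and TrbE14 groups.

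Cd163, Mrc1 and Lyve1, receptor genes that are widely used to recognize resident macrophages, did not pass the test in either mutant. Cd163 gave log2 signals of 4.94, 4.64, 2.39 and 4.40 in control, 4.78, 3.36, 5.40 and 5.74 in TrbE10, and 4.50, 4.13, 5.00 and 5.65 in TrbE14 hearts. It was well above background on 2 of 4 control, 3 of 4 TrbE10 and 2 of 4 TrbE14 arrays, so its means include values that are only bounds. The log2 changes were 0.72 in each mutant (SE 0.62, adjusted p = 0.608 and 0.615), so that a difference of this size was not detectable at this signal. Control replicate 3, the lowest value, was below background, and without it the changes were 0.16 in TrbE10 and 0.16 in TrbE14. Without TrbE10 replicate 2 the value in TrbE10 was 1.21, and without TrbE14 replicate 4 that in TrbE14 was 0.45. Correcting the background by normexp gave 0.215 and 0.075, so the size of the Cd163 values rested on single arrays and on the background.

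Mrc1 was well above background on every array, spanning 8.87 to 9.22 in control hearts, 9.09 to 9.37 in those of TrbE10 and 8.82 to 9.08 in those of TrbE14. TrbE10 and TrbE14 each overlapped control, although they did not overlap each other. Its log2 changes were 0.20 (SE 0.10, adjusted p = 0.385) and -0.06 (SE 0.10, adjusted p = 0.825). Between the mutants Mrc1 was higher in TrbE10 by 0.25, with a 95% confidence interval of 0.02 to 0.48 and an adjusted p of 0.846.

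Lyve1 spanned 7.53 to 7.86 in control hearts, 7.31 to 7.86 in those of TrbE10 and 7.19 to 8.02 in those of TrbE14, and all 3 groups overlapped. Its log2 changes were -0.18 (SE 0.18, adjusted p = 0.661) and 0.03 (SE 0.18, adjusted p = 0.953), and the sign of the second turned with the background correction and with single arrays left out. F13a1, the transglutaminase subunit, spanned 10.83 to 11.16 in control hearts, 10.83 to 11.45 in those of TrbE10 and 10.90 to 11.34 in those of TrbE14. These groups overlapped too, with log2 changes of 0.19 (SE 0.14, adjusted p = 0.538) and 0.13 (SE 0.14, adjusted p = 0.704). The second F13a1 probe was not well above background on any of the 12 arrays.

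**Figure D2:**
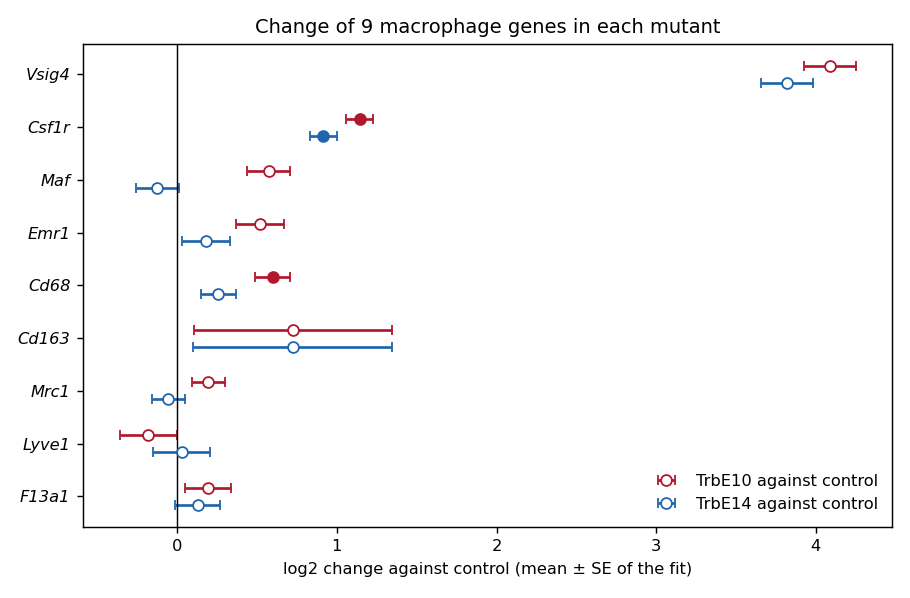
Log2 change against control (horizontal axis) of each gene in TrbE10 and TrbE14 hearts, with the SE of the limma fit as bars, n = 4 arrays per group. Filled points have an adjusted p under 0.05 over all probes. Vsig4, which was chosen for its rise and not tested, stands at 4.09 and 3.82, Csf1r is filled in both mutants and Cd68 in TrbE10, and the other genes lie below 1 in size.

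Vsig4 apart, 2 of the other 8 members (Csf1r and Cd68) passed the test as higher in TrbE10 and 1 (Csf1r) in TrbE14, and 0 as lower. Over all 18021 genes, 1.28% were called higher in TrbE10 and 0.533% in TrbE14. With Vsig4 included, the 4 TrbE10 arrays lay above the 4 control arrays for 4 of the 9 members (Vsig4, Csf1r, Cd68 and Maf), against 4.94% of all genes, and the 4 TrbE14 arrays did so for 2 of the 9 (Vsig4 and Csf1r), against 4.65%. The members were named with results of these arrays known, so these shares describe the genes and are not independent evidence. Their median log2 change was 0.57 in TrbE10 and 0.18 in TrbE14, where the medians over all genes were -0.03 and -0.03. Both mutants were compared with the same control arrays. Of the genes called in TrbE10, 66.4% were higher, and 56.0% with scaling to the 75th percentile.

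In the direct comparison of the mutants, TrbE10 against TrbE14, 0 of the 9 members and 0% of all genes passed the test. By limma 1074 of the 18021 genes had an unadjusted p under 0.05, and SAM also called 0 genes. The differences were positive for 8 of the 9 members, Lyve1 being the exception at -0.21, and for 51.2% of all genes. The unadjusted 95% confidence intervals lay above 0 for Mrc1, Maf, Csf1r, Emr1 and Cd68, and for all of these but Emr1 the lowest TrbE10 array lay above the highest TrbE14 array, as for 1.64% of all genes. The median difference of the members was 0.25, against 0.005 over all genes. Slide and group coincide in this comparison.

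**Figure D3:**
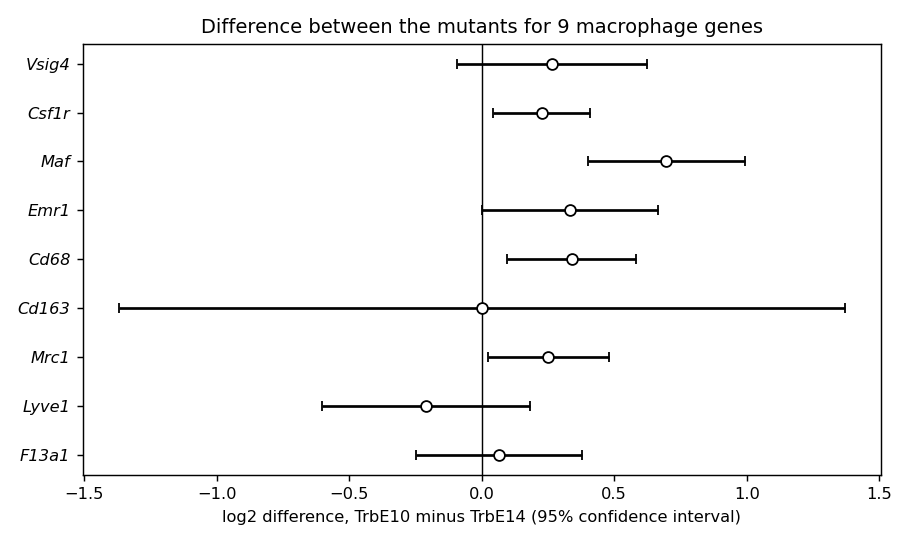
Log2 difference between the mutants, TrbE10 minus TrbE14 (horizontal axis), for each gene, with the 95% confidence interval of the limma fit, unadjusted for the number of genes tested. Maf has the largest difference, 0.70, the interval of Vsig4 includes 0, and that of Cd163 is the widest, from -1.37 to 1.37.

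Within a group the members deviated in different directions. Over the deviations of the 12 arrays from their group means, 13 of the 36 pairs of members had a positive correlation, with a median Pearson's r of -0.10 and a range from -0.85 to 0.68. Vsig4 and Csf1r deviated with an r of 0.54, and Vsig4 and Mrc1 with an r of -0.68. With 4 arrays per group these values are imprecise and serve as a description. No array was high for all members, the count above the group mean being between 3 and 7 of the 9.

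The 3 members that mark macrophages in general (Csf1r, Emr1 and Cd68) were averaged on each array, and the change of each other member was set against the change of that mean, with no test. Relative to it, Vsig4 was higher than in control by 3.34 on the log2 scale in TrbE10 and 3.37 in TrbE14. Mrc1 was lower relative to it by -0.56 and -0.51, Lyve1 by -0.93 and -0.42, and F13a1 by -0.56 and -0.32. In TrbE14 the relative values of Lyve1 and F13a1 overlapped those of control, while in TrbE10 they did not, and those of Mrc1 overlapped in neither. Maf gave relative values of -0.18 and -0.58, and Cd163, near background, of -0.03 and 0.27. The general markers differ among themselves as well, with log2 changes of 1.14 and 0.92 for Csf1r, 0.60 and 0.26 for Cd68, and 0.52 and 0.18 for Emr1. The relative values thus depend on which markers are averaged, and Mrc1, Lyve1 and F13a1 themselves did not pass the test in either mutant.

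A further 13 genes of macrophages in general, none of them a member, were measured without exception. All 13 had positive changes in both mutants, against 45.2% of all genes in TrbE10 and 44.1% in TrbE14. Their medians were 0.71 and 0.34 on the log2 scale in TrbE10 and TrbE14, and 5 rose in TrbE10 and 0 in TrbE14, where 5 had an unadjusted p under 0.05. The count in TrbE10 depended on single arrays, from 0 without control replicate 4 to 7 without control replicate 3, and SAM called 2. The IgG receptor gene Fcgr1 was not well above background on any control array, so only a bound can be given: the mutant mean was set against the mean, over control arrays, of the higher of the gene's own signal and the lowest signal well above background. By it Fcgr1 was at least 2.20-fold higher in TrbE10, while the adjusted p of 0.0151 belongs to its fitted log2 change of 1.25. Fcgr1, 1 of the 5 called and of the 13 positive, passed the filter on background only through the mutants, where it was high. Neither its call nor its positive sign is independent of that filter. The same reckoning gave 1.26-fold in TrbE14, which is not a lower bound, as only 3 of 4 TrbE14 arrays were well above background. With Fcgr1 at that value the median of the list in TrbE14 was 0.33. Aif1, which encodes the IBA1 antigen, rose by 0.96 in TrbE10 (adjusted p = 0.0477). C1qc and C1qa, chains of complement C1q that macrophages secrete, rose by 0.84 (adjusted p = 0.0153) and 0.72 (adjusted p = 0.0265), and Tyrobp, a signalling adaptor named here after its value was seen, by 0.71 (adjusted p = 0.0194). Of the 12 fits that each left out 1 array, Aif1 was called in 2, C1qa in 6, Tyrobp in 8, Fcgr1 in 10 and C1qc in 11. The summed signal of the 13 genes spanned 14680 to 17990 in control hearts, 20670 to 24160 in those of TrbE10 and 18220 to 20090 in those of TrbE14, so that both mutants lay above control. Lgmn, singled out for its high signal, had a control mean log2 of 12.9, and the next highest, C1qc, had 10.9. The sum thus weighed Lgmn most, whose changes were 0.14 (adjusted p = 0.404) and 0.07 (adjusted p = 0.710).

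Other genes of resident macrophages were split in direction. Of 15 listed, 14 were measured, 9 were positive in TrbE10 and 6 in TrbE14, and the median log2 changes were 0.26 and -0.08. Over all genes 45.2% were positive in TrbE10 and 44.1% in TrbE14. Pf4, a chemokine made by platelets and by resident macrophages, rose by 0.53 in TrbE10 (adjusted p = 0.0234) and had a change of 0.34 in TrbE14 (adjusted p = 0.188), and it was the only gene of the list to pass the test by limma. SAM called 0 of the list, and the call of Pf4 was lost without control replicate 1, 2 or 4 or TrbE10 replicate 1. In TrbE14 4 of the 14 had an unadjusted p under 0.05. Genes below were singled out after their values were seen. Timd4, a receptor for phosphatidylserine that marks the self-renewing subset, was likewise not well above background on any control array. Reckoned as for Fcgr1 it was 1.65-fold and 1.29-fold higher. These are not lower bounds, as only 3 of 4 arrays of each mutant were well above background. Its fitted changes were 1.22 (adjusted p = 0.168) and 0.87 (adjusted p = 0.382), and it too passed the filter only through the mutants. Timd4 counts among the 9 and the 6 positive genes, and its sign is not independent of that filter. Folr2, a folate receptor of the same cells, had values of 0.14 (adjusted p = 0.777) and -0.16 (adjusted p = 0.749). The lectin genes Cd209g and Cd209f had values of -0.81 (adjusted p = 0.110) and -0.70 (adjusted p = 0.402) in TrbE10. The summed signal of the list spanned 20370 to 24010 in control hearts, 23680 to 39120 in those of TrbE10 and 22370 to 25320 in those of TrbE14, and the groups overlapped. Gas6 and Cbr2 had the highest control mean log2 signals, 13.4 and 12.2, so the sum weighed these genes most and says little of the others.

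**Figure D4:**
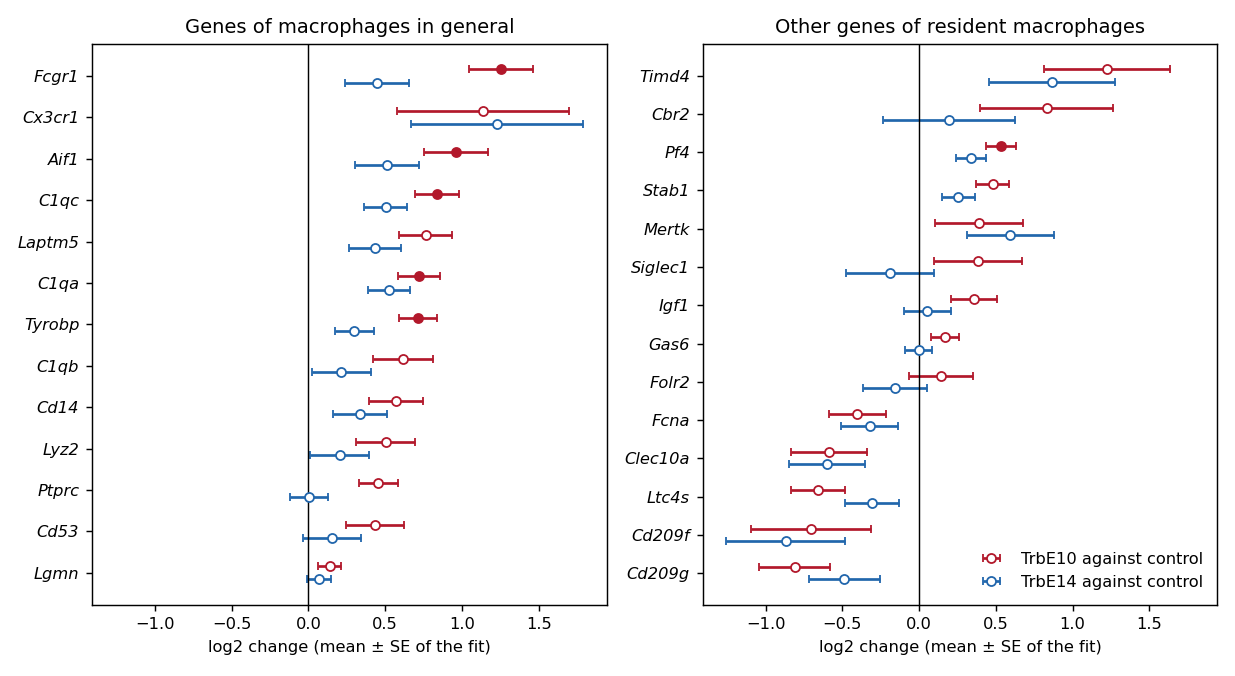
Log2 change against control (horizontal axis) of the 13 general macrophage genes on the left and of the 14 measured other resident macrophage genes on the right, in TrbE10 and TrbE14 hearts, with the SE of the limma fit. Filled points have an adjusted p under 0.05. The points of Fcgr1 and Timd4 are fitted against control values that were not well above background. All points on the left lie above 0, whereas those on the right lie on both sides.

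Of 12 genes for the ligands of CSF1R and for transcription factors of macrophages, 11 were measured, 1 rose in TrbE10 and 0 in TrbE14 (2 at an unadjusted p under 0.05), with median log2 changes of 0.20 and 0.20. Cebpa, a transcription factor of the myeloid lineage, rose by 0.72 (adjusted p = 0.0287) in TrbE10 and had a change of 0.51 (adjusted p = 0.156) in TrbE14, the call in TrbE10 holding in 6 of 12 fits with 1 array left out and not by SAM. The ligand genes Csf1 and Il34 gave 0.46 (adjusted p = 0.437) and 0.15 (adjusted p = 0.708) in TrbE10, and Spi1, which encodes PU.1 and is listed in the files as Sfpi1, gave 0.15 (adjusted p = 0.715). In TrbE14 the same genes gave 0.08 (adjusted p = 0.910), 0.17 (adjusted p = 0.671) and 0.24 (adjusted p = 0.550). Both ligand genes and Spi1, singled out for their roles, stayed short of the threshold in both mutants.

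For the ligand of VSIG4, complement C3, singled out for that role, the log2 changes were 0.22 (adjusted p = 0.450) and -0.24 (adjusted p = 0.449). Of the 9 genes of C3, its convertase and its receptors, all 9 were measured and 1 rose in TrbE10, Itgb2, the shared chain of the integrin receptors for C3 fragments, by 0.36 (adjusted p = 0.0458). That call held in 0 of the 12 fits that each left out 1 array, and not by SAM. In TrbE14 0 of the 9 passed (2 at an unadjusted p under 0.05), and the medians were 0.13 and -0.12. Haemoglobin clearance, the process of CD163, was followed through 11 genes, of which 11 were measured and 0 passed in either mutant (4 and 5 at an unadjusted p under 0.05), with medians of 0.03 and 0.19. The haem oxygenase gene Hmox1 had values of 0.67 (adjusted p = 0.135) and 0.90 (adjusted p = 0.0883), with every mutant array above every control array.

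Among 11 genes of hyaluronan, the ligand of LYVE1, 7 were measured and 1 fell in TrbE10, Stab2, a scavenger receptor for hyaluronan on sinusoidal and lymphatic endothelium, by -1.19 (adjusted p = 0.0139). Its change in TrbE14 was -0.71 (adjusted p = 0.157), and no other gene of the list passed in either mutant, 4 having an unadjusted p under 0.05 in TrbE14. The fall of Stab2 was called in all 12 fits with 1 array left out and by SAM. LYVE1 is also made by lymphatic endothelium. Of the 7 genes of that cell type 5 were measured, and Mmrn1 fell by -0.69 in TrbE10 (adjusted p = 0.0318), while the lymphatic transcription factor gene Prox1, singled out for its role, had a value of -0.54 (adjusted p = 0.282). The call of Mmrn1 held in 7 of the 12 fits with 1 array left out, failing without control replicate 1, 3 or 4 or TrbE10 replicate 1 or 4, and not by SAM. In TrbE14 0 of the 5 passed (2 at an unadjusted p under 0.05), and the median changes were -0.20 and -0.39. The summed signal of these 5 genes spanned 1211 to 1282 in control hearts, 948 to 1271 in those of TrbE10 and 899 to 1108 in those of TrbE14. The part of lymphatic endothelium in the Lyve1 values was not tested. Of the relatives of Mrc1, 1 of 3 was measured, Mrc2, with changes of 0.26 (adjusted p = 0.316) and 0.05 (adjusted p = 0.869), and an unadjusted p above 0.05 in both.

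Genes of macrophage activation gave 1 call that was shared by the mutants. Of 7 genes of alternative activation 5 were measured, and Trem2, a lipid-sensing receptor of macrophages, rose by 1.58 in TrbE10 (adjusted p = 0.00162) and by 1.28 in TrbE14 (adjusted p = 0.00799). Both calls held in all 12 fits with 1 array left out and under the 9 other settings, SAM among them. Retnla, a secreted product of alternatively activated macrophages singled out after its value was seen, had values in the opposite direction of -1.65 (adjusted p = 0.0560) and -1.45 (adjusted p = 0.134), with no overlap with control. Of 7 genes of inflammatory activation 3 were measured and 0 passed in either mutant (2 and 1 at an unadjusted p under 0.05), with medians of 0.50 and 0.19. Nos2, the inducible nitric oxide synthase gene, had values of -0.68 (adjusted p = 0.410) and -0.88 (adjusted p = 0.349). The T cell costimulatory ligand genes Cd86 and Cd80 gave 0.61 (adjusted p = 0.0723) and 0.50 (adjusted p = 0.272) in TrbE10, and 0.19 (adjusted p = 0.594) and 0.39 (adjusted p = 0.429) in TrbE14. The cytokine genes Il1b, Il6, Tnf and Il12b did not pass the filter on background.

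Blood monocytes were poorly covered, as 3 of their 7 genes were measured. Of the defining genes, Ccr2 did not pass the filter and Ly6c2 was not matched to a gene name on the array. Of the measured genes 0 passed the test in either mutant (2 and 1 at an unadjusted p under 0.05), and the summed signal spanned 1814 to 4063 in control hearts, 3338 to 4310 in those of TrbE10 and 1303 to 3274 in those of TrbE14. The sum was almost wholly the signal of F10, with a control mean log2 of 11.49, against 5.02 for Plac8 and 3.24 for Chi3l3. Chi3l3, a chitinase-like protein of myeloid cells, was not well above background on any control array. It was so on 2 of 4 arrays in TrbE10 and 3 of 4 in TrbE14, and passed the filter through TrbE14 alone. Reckoned as for Fcgr1 it was 1.35-fold and 1.25-fold higher in TrbE10 and TrbE14, which are not lower bounds. The fitted changes were 1.64 (adjusted p = 0.0967) and 1.52 (adjusted p = 0.188). F13a1 and Pf4 are also platelet products, and of 7 other platelet genes 4 were measured and 0 passed in either mutant (1 in each at an unadjusted p under 0.05), with medians of -0.15 and -0.14. Treml1, the 1 of the 4 with a positive change, had values of 1.01 (adjusted p = 0.268) and 0.97 (adjusted p = 0.345). Of 8 genes of macrophages of other organs 5 were measured and 0 passed in either mutant (1 and 2 at an unadjusted p under 0.05), with medians of -0.04 and -0.11. Tmem119, a microglial gene, had changes of 1.11 (adjusted p = 0.118) and 0.85 (adjusted p = 0.289), and the scavenger receptor gene Marco of -0.27 (adjusted p = 0.548) and -0.66 (adjusted p = 0.204). Clec4f, singled out as a marker of Kupffer cells, the liver macrophages that are rich in VSIG4, had changes of 0.23 (adjusted p = 0.853) and 0.32 (adjusted p = 0.774). The part of these cell types in the result was not tested.

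The genes most like Vsig4 were sought by the Pearson correlation of log2 signals over the 12 arrays, among 18014 genes. These arrays share 3 groups that differ widely in Vsig4, so the measure mainly follows the difference between control and both mutants, and it is a description. Csf1r ranked 3 with an r of 0.98, below Cfi (complement factor I, a protease of C3b, 0.99) and Cd207 (langerin, a C-type lectin, 0.99). The B cell chemokine gene Cxcl13 and Bmp10, which encodes a growth factor of the trabecular myocardium, had an r of 0.98 each, and TC1653793, Stim1, Smad6, Unc5b and Bin1 had an r between 0.97 and 0.98. Among the members, Cd68 ranked 459 (r = 0.77) and Emr1 1234 (r = 0.62), while Cd163 (0.39), Maf (0.35), F13a1 (0.33), Mrc1 (0.18) and Lyve1 (-0.17) were less alike.

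Once the group means were removed, the list of genes most like Vsig4 was another one. By the correlation of deviations, the highest r was 0.95 for a probe without a gene symbol, and the named genes among the first 10 were Tram2 (0.93), Rasa3 (0.92), Rab33a (0.91), Csf2rb (0.90) and Slc25a30 (0.90). Csf2rb, which encodes the common chain of the receptors for GM-CSF, IL-3 and IL-5, had a log2 change of 0.83 in TrbE10 and 0.34 in TrbE14. Cfi ranked 111 by this measure (r = 0.81), and Cd207 5187 (r = 0.26). Each of these values rests on 12 arrays and was the extreme of 18014, and they are given as a description.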

How the data were processed

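Total RNA from 12 left ventricles was hybridized to one-colour Agilent arrays (SurePrint G3 Mouse GE 8x60K). Per array, the authors deposited scanner output of Agilent Feature Extraction 10.5 (version per the submitters' processing notes), whose processed signal is a background-subtracted intensity that is not scaled between arrays. The authors also deposited log2 values, quantile normalized and filtered on background. Precision is limited by the number of arrays.

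These intensities were here taken to log2 and quantile normalized (R 4.3.3, limma 3.58.1). Control spots (3671 of 62976) were removed, outlier spots were made missing, and replicate spots were averaged by probe. Probes well above background on at least 3 of 4 arrays of any group were kept, which left 24593 of 55681. A model with 1 mean per group over the 12 arrays was fitted with limma, and p-values were adjusted over all kept probes by the Benjamini-Hochberg method. All adjusted p come from limma unless another tool is named, and calls have an adjusted p under 0.05. A gene was represented by its kept probe with the highest mean signal.

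The 9 members and the gene lists were chosen with earlier results of these data known, and the lists come from general knowledge of markers. Of 169 listed genes 167 were on the array. Named from each list were up to 4 called genes with the largest change in TrbE10, or, where none was called, those with the largest change. Other genes named are said to have been singled out. Likeness to Vsig4 was given by the 10 highest correlations, and some genes are not reported here. The scripts were tested on simulated data. Sequences were read with Python 3.11.15 and pandas 2.3.3, and figures drawn with matplotlib 3.10.9.

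Alternative settings scaled arrays to their 75th percentile, corrected the background by normexp (offset of 50), took the authors' normalized values, kept probes above background on 9 of 12 arrays or all probes, fitted only the 2 groups compared, added the replicate number as a block or sex as a covariate, used SAM (false discovery rate of 5%) or another probe of the gene, and left out each array in turn.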

Additional observations from a re-analysis of the deposited data

Results flagged for a closer look

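Of 27 groups of 4 arrays examined for a single distant value among the 9 members, 1 was marked, where chance marks about 1 in 20. For Csf1r in control hearts, replicate 3 had a log2 signal of 12.43 and the nearest other control array 12.19, and this gap made up 0.852 of the range of the group, above the 95% critical value of Dixon's test for 4 values. Without this array the log2 changes of Csf1r were 1.20 in TrbE10 and 0.98 in TrbE14, both past the threshold.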

How the results depend on the processing

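Without the filter, with only the 2 groups compared and by SAM, the number of all genes called in TrbE10 was 164, 216 and 211 in place of 348, and the number of members other than Vsig4 was 1 under each in place of 2, the call of Cd68 being lost. With each array left out in turn these counts ran between 136, when TrbE10 replicate 3 was left out, and 588, when TrbE10 replicate 2 was, and from 1 to 2. In TrbE14 normexp gave 198 genes in place of 119, leaving out arrays gave 71 (without control replicate 3) to 159 (without TrbE10 replicate 2), and 1 member was called throughout. Between the mutants, scaling to the 75th percentile called 2 genes and no filter 1 in place of 0, leaving out arrays gave 0 to 1, and 0 members were called throughout. The cause of these shifts was not tested. Counts called in the gene lists were recomputed under these settings, a choice made after the data had been seen. In TrbE10 the general macrophage list had 2 called by SAM, 3 without the filter or with 2 groups and 6 with scaling, normexp or the authors' values, in place of 5. In place of 1, the other resident genes had 0 with scaling, 2 groups or SAM and 2 with normexp or the authors' values, and the CSF1R ligands and factors had 0 without the filter, with 2 groups, the block or SAM and 2 with normexp, the authors' values or sex as a covariate. The complement list had 1 called with normexp, the authors' values and the filter on 9 of 12 arrays and 0 under the others, the lymphatic list had 0 without the filter, with 2 groups or SAM, and alternative activation had 2 with scaling, normexp or the authors' values. The fibroblast list had 0 without the filter, with 2 groups, the block or SAM and 2 with the authors' values or sex, and in TrbE14 0 with scaling or the block.

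Reversals touched only values that had failed the test. Lyve1 in TrbE14 turned to -0.015 with normexp, -0.026 without control replicate 3 or TrbE14 replicate 3 and -0.072 without TrbE14 replicate 4, its range with arrays left out reaching up to 0.204. Mrc1 in TrbE14 turned to 0.005 without control replicate 3 (range from -0.112). Between the mutants, Cd163 turned to -0.149 with scaling to the 75th percentile, -0.104 without TrbE14 replicate 1 and -0.229 without TrbE14 replicate 2 (range up to 0.487), and F13a1 to -0.029 without TrbE10 replicate 2 and -0.004 without TrbE14 replicate 2 (range up to 0.178). The difference of Vsig4 was 3.56 and 3.40 with normexp and 4.01 in TrbE14 with sex as a covariate.

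The arrays of the groups share replicate numbers, which were not taken as pairs in the main fit. Same-numbered arrays of other groups deviated from their group means with correlations from -0.24 to 0.48, and other-numbered ones from -0.52 to 0.41. Of the 12 arrays, 6 matched their own number best. Whether same-numbered arrays share an effect was not tested. With the replicate number as a block, 257 genes were called in TrbE10, 119 in TrbE14 and 0 between the mutants, and 2, 1 and 0 members.

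Signal limits Fcgr1, whose log2 change in TrbE10 was 0.44 at the lowest under the other settings and which the filter on 9 of 12 arrays did not keep, and Cd163, which 5 of 12 arrays did not measure above background.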

Other observations

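Genes of other cell types that the tissue could hold were followed as well. Of 6 fibroblast genes all 6 were measured, with median log2 changes of 0.43 in TrbE10 and 0.42 in TrbE14, and Dcn, which encodes the matrix proteoglycan decorin, rose in both, by 0.39 (adjusted p = 0.0377) and 0.50 (adjusted p = 0.0190). These calls of Dcn held in 3 and 8 of the 12 fits that each left out 1 array. Scaling to the 75th percentile and the replicate block lost the call in both mutants, and no filter, only the 2 groups compared and SAM lost it in TrbE10. The summed signal of the fibroblast genes spanned 68110 to 75950 in control hearts, 85760 to 102500 in those of TrbE10 and 90790 to 105700 in those of TrbE14, with no overlap between either mutant and control. Dcn had a control mean log2 signal of 15.7 and the next highest of the 6 had 13.4, so the sum mostly followed Dcn. The part of fibroblasts in the macrophage results was not tested.

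By limma and by SAM, 0 of the measured genes of neutrophils (3 of 8), dendritic cells (3 of 7), T cells (4 of 6), B cells (3 of 5) and erythroid cells (4 of 5) passed in either mutant. At an unadjusted p under 0.05 there was 1 neutrophil gene in TrbE10 and 1 B cell gene in each mutant, and no other. The B cell receptor gene Cd79b had values of 0.97 (adjusted p = 0.0559) and 0.93 (adjusted p = 0.106), with every mutant array above every control array, whereas Cd79a had 0.23 (adjusted p = 0.737) and 0.07 (adjusted p = 0.931). Median changes of the erythroid genes were 0.31 and 0.32, and Alas2, the erythroid enzyme gene of haem synthesis, had a value of 0.43 (SE 0.48, adjusted p = 0.705) in TrbE10.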
